A study of Homo sapiens with 12 samples.

Results

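FOXO transcription factors, their atrophy targets and the insulin signalling genes around them were followed as a set of 10 genes: the adaptors IRS1 and IRS2, the PI3-kinase regulatory subunit PIK3R1, the factors FOXO1, FOXO3 and FOXO4, the ubiquitin ligases FBXO32 and TRIM63, and the growth brakes DDIT4 and SESN1. They were taken by gene symbol, from a list drawn up with earlier results of these data known. All 10 were found among the 19907 genes of the table. The deposited values are normalized read counts, that is, reads per gene divided by 1 size factor per library. All 10 passed the filter on low values (10 or more in 3 or more libraries) and were tested among the 15957 genes that passed it.

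The study measured RNA from MDA-MB-231, a human triple-negative breast cancer line, carrying a glucocorticoid receptor that was wild-type (WT-GR) or in which the serine of the S134A exchange was replaced by alanine (S134A-GR), so that this residue cannot be phosphorylated. Cells of all 4 groups were first kept for 18 h in IMEM with 1% DCC, and then received vehicle or 1 µM of Dex (dexamethasone, a synthetic glucocorticoid) for 6 h. The groups were WT-GR vehicle, WT-GR Dex, S134A-GR vehicle and S134A-GR Dex, each with 3 libraries. The labels do not say how the receptor was introduced, whether a line is 1 clone, or whether the 3 libraries of each group stem from different cultures. The p-values therefore reflect the spread among these samples alone, possibly a technical one, and a difference between the 2 lines cannot be told apart from a difference between their clones or passages. An exchange of 1 amino acid leaves no trace in counts per gene, so the genotype labels were not checked in this way.

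Insulin and insulin-like growth factors bind receptor tyrosine kinases, which phosphorylate the IRS adaptors. These recruit PI3-kinase, and the kinase AKT downstream of it phosphorylates FOXO factors and keeps them out of the nucleus. When the signal is low, or when glucocorticoids act on muscle, nuclear FOXO factors switch on ubiquitin ligases of protein breakdown, autophagy genes and, as feedback, IRS2 and receptor genes. DDIT4 (REDD1) and the sestrins restrain the growth kinase complex mTORC1, and DDIT4 is a textbook glucocorticoid-induced gene.

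Recovered library totals ran from 56.4 to 100.6 M reads, and the 2 shallowest were replicate 1 of WT-GR vehicle and replicate 1 of WT-GR Dex. WT-GR Dex replicates 2 and 3 stood apart in having few genes with a single read, 193 and 210 where the others had 352 to 409. They also had the most genes at 0, 2890 and 2910 where the others had 1767 to 2611, at totals of 93.8 and 93.0 M reads. The results for WT-GR Dex were therefore also computed without both of them. The mesenchymal markers of this line were high in every library (VIM 366469 to 431198, AXL 97698.5 to 124504 normalized reads). Of the luminal and receptor markers, ESR1 was at 0 in 8 libraries and at most 5.66 in the others. CDH1 was at most 17.1, and PGR was not found. KRT8 (61689 to 88316.5), ERBB2 (8864 to 12005), GATA3 (786 to 1574) and EPCAM (315 to 1093) were read in every library. The 6 luminal markers found, out of 7, did not stay level: their summed value was 72342 to 75726 in WT-GR vehicle, 90137 to 102293 in WT-GR Dex, 75893 to 80443 in S134A-GR vehicle and 80585 to 89404 in S134A-GR Dex, mostly from KRT8. The sum of the 4 mesenchymal markers was 589986 to 615703 and 595818 to 603817 in the vehicle groups, and 522539 to 533839 and 526837 to 539531 in the Dex groups of WT-GR and S134A-GR cells. The part of these shifts in the results below was not tested. Of the muscle and blood markers, 3 of 6 and 1 of 4 were found, with summed values of at most 25.6 and 18.3, and MYH7 was at 0 in 9 libraries. In bulk RNA, fewer cells with a transcript and less transcript per cell cannot be told apart.

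The upstream sequences of 4 members are shown because these genes were called higher with Dex in both genotypes and make up 2 paralogue pairs, the adaptors IRS1 and IRS2 and the factors FOXO1 and FOXO3. Each is the 250 bases before the RefSeq transcription start (GRCh38.p14), read 5′ to 3′ on the strand of the gene. IRS1 lies at chr2:226799821-226800070 and IRS2 at chr13:109786584-109786833, both on the minus strand. FOXO1 lies at chr13:40666642-40666891 on the minus strand, and FOXO3, for the first of its 4 listed starts, at chr6:108559575-108559824 on the plus strand. Capitals mark the only match among them to the 4 motifs described next.
IRS1: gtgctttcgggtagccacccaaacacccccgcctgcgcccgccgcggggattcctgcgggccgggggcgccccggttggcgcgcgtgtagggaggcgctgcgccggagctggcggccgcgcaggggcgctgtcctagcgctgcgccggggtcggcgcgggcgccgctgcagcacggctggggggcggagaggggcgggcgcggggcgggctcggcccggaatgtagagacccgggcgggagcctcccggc
IRS2: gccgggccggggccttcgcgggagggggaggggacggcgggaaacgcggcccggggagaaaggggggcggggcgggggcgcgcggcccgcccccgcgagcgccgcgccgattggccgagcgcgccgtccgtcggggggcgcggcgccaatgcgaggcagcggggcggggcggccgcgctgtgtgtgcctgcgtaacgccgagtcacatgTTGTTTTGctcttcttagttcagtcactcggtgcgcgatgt
FOXO1: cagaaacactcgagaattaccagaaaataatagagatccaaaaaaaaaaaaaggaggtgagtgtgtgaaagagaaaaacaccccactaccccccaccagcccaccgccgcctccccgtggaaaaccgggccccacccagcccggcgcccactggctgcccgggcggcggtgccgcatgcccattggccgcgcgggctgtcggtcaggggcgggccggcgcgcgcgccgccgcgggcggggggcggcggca
FOXO3: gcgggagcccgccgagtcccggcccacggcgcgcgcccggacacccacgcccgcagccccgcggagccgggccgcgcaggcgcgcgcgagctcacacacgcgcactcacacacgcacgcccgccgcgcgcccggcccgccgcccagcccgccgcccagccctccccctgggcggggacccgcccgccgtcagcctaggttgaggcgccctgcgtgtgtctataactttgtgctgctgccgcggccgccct

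Such windows existed for 9 of the 10 members (17 windows, with several starts for some genes), and FBXO32 had no entry in the table of promoters used. Motifs were searched on both strands in all 35116 windows. The insulin response sequence CAAAACAA, a forkhead-type site described in promoters of insulin-repressed genes, was present in 1.46% of all windows and, among the members, in IRS2 alone, where it reads TTGTTTTG on the gene's strand at positions -41 to -34 from the start. The forkhead site GTAAACA occurred in 2.98% of windows and in 0 of the 17 member windows. The glucocorticoid half-site AGAACA occurred in 12.4% of windows, among the members in TRIM63 (positions -199 to -194 from the start) and at 1 alternative start of PIK3R1 (-225 to -220). The full element of 2 facing half-sites, AGAACA, any 3 bases and TGTTCT, was found in 1 window of all and in no member. Only exact matches were counted. In TRIM63 the half-site is part of tgaacaggcTGTTCT, which differs from the full element in its first letter alone. A match describes these letters only, and a missing match says only that the letters are not in this window. GC content was 80.8% for the IRS1 window, 76.4% for IRS2, 67.2% for FOXO1 and 80.4% for FOXO3.

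With Dex, 5 of the 10 members rose in both genotypes, and FBXO32 went opposite ways in the 2 lines. In WT-GR cells 6 of 10 members were called higher (limma, Benjamini-Hochberg adjusted p under 0.05 over all 15957 genes): IRS1, IRS2, FOXO1, FOXO3, FBXO32 and DDIT4. The other 4 also missed an unadjusted p of 0.05. Across all genes tested, 27.9% were called in this comparison, 13.9% higher and 14.0% lower. In S134A-GR cells 6 members were called higher (IRS1, IRS2, PIK3R1, FOXO1, FOXO3 and DDIT4) and 2 lower (FOXO4 and FBXO32), where 15.7% of all genes were called, 7.99% higher and 7.76% lower. The 5 members called higher in both genotypes were IRS1, IRS2, FOXO1, FOXO3 and DDIT4, against 5.79% of all genes, and no member was called lower in both, against 5.31%.

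The median log2 change of the 10 members was 0.38 for WT-GR cells and 0.40 for S134A-GR cells, beside -0.02 for all tested genes in each. Dex and vehicle libraries did not overlap for 6 members in WT-GR cells and for 9 in S134A-GR cells, where 35.1% and 38.6% of all genes showed no overlap. Without WT-GR Dex replicates 2 and 3, the log2 changes in WT-GR cells were 1.98 for IRS2, 1.28 for FOXO1, 1.04 for DDIT4, 0.51 for FOXO3, 0.49 for FBXO32 and 0.33 for IRS1. All 6 were then still called, with the lone Dex library assumed to vary like the other groups. With 3 libraries against 3, the exact two-sided permutation test of a single gene cannot go below 0.1, and it gave 0.1 for every gene whose groups did not overlap. Log2 changes are on the scale log2(value + 1), and folds are ratios of group means of normalized reads.

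**Figure D1:**
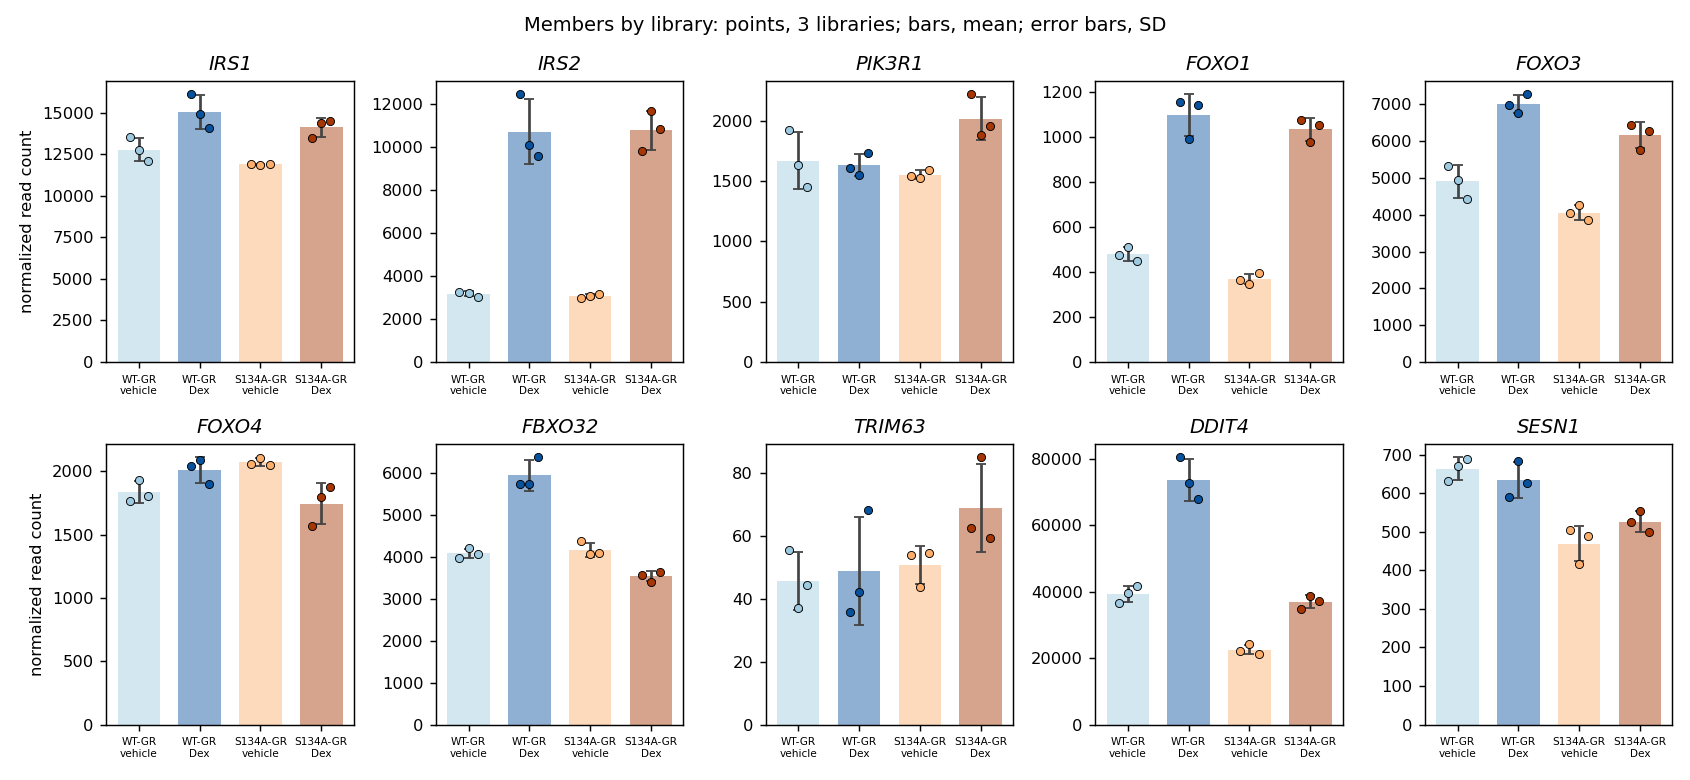
Normalized read count of each member in the 4 groups (points, 3 libraries; bars, group mean; error bars, SD; every vertical axis starts at 0). IRS2 and FOXO1 stand clear of vehicle in both genotypes, DDIT4 is lower throughout in S134A-GR cells, and FBXO32 moves up in WT-GR and down in S134A-GR cells.

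IRS2, an adaptor of the insulin receptor that is prominent in liver, gave the largest change of the set. In WT-GR cells it was 3244, 3218 and 3035 normalized reads with vehicle (replicates 1 to 3) and 12462.5, 10116 and 9612 with Dex. With S134A-GR it was 2988, 3058 and 3169 with vehicle and 9841, 11683 and 10846 with Dex. Every Dex library was above every vehicle library in both lines, and the lines overlapped with each other under either treatment. The means rose from 3166 ± 114 to 10730.1 ± 1521 (SD, n = 3), 3.39-fold, in WT-GR and from 3072 ± 91.2 to 10790 ± 923, 3.51-fold, in S134A-GR cells. The log2 changes were 1.75 ± 0.085 (SE) and 1.81 ± 0.085, with limma adjusted p of 3.88e-09 and 2.70e-09. They ranked 149 and 122 from the top among all genes.

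IRS1, the paralogous adaptor, moved far less. It was 13524, 12736 and 12093 with vehicle and 16102, 14933 and 14052 with Dex in WT-GR cells, and 11902, 11860.4 and 11917 with vehicle and 13449, 14383 and 14520.3 with Dex in S134A-GR cells. All Dex libraries lay above the vehicle libraries of their line. The rise was 1.18-fold in WT-GR (log2 0.23, limma adjusted p = 0.00721) and 1.19-fold in S134A-GR cells (log2 0.25, adjusted p = 0.00673).

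Because both adaptors are read in the same library, their balance does not depend on the size factors. Per kilobase of annotated exon (the union of all exons of the gene in GENCODE v29), IRS2 made up 22.7, 23.6 and 23.5% of the 2 adaptors in WT-GR vehicle and 48.6, 45.3 and 45.6% in WT-GR Dex libraries. In S134A-GR cells the share was 23.5, 24.0 and 24.5% with vehicle and 47.2, 49.8 and 47.7% with Dex. The share thus went from 23.3 ± 0.50% to 46.5 ± 1.85% (SD, n = 3) in WT-GR and from 24.0 ± 0.52% to 48.3 ± 1.38% in S134A-GR cells, without overlap (exact permutation p = 0.1 in each line). Between the lines the shares overlapped under both treatments (exact permutation p = 0.2 with vehicle and 0.3 with Dex).

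PIK3R1, which encodes the p85-alpha subunit that docks PI3-kinase on IRS proteins, rose in S134A-GR cells and was not called in WT-GR cells. With vehicle and Dex it was 1921, 1637 and 1448, then 1610, 1552 and 1735 in WT-GR cells, where the groups overlapped. In S134A-GR cells it was 1541, 1523 and 1593 with vehicle and 2219, 1882 and 1955 with Dex, and these did not overlap. The log2 change was -0.02 (limma adjusted p = 0.876) in WT-GR and 0.38, 1.30-fold, in S134A-GR cells (adjusted p = 0.0139). The S134A-GR call was lost without vehicle replicate 1 (adjusted p = 0.0501), without vehicle replicate 2 (adjusted p = 0.053) and without Dex replicate 1 (adjusted p = 0.0681), and the change then was 0.37, 0.36 and 0.31.

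Of the FOXO factors, FOXO1 responded most. It was 474, 510.5 and 448 normalized reads with vehicle and 1156, 991 and 1142 with Dex in WT-GR cells. The S134A-GR libraries had 362, 348 and 395 with vehicle and 1075, 976 and 1050.2 with Dex. The lowest Dex library of either line was above the highest vehicle library of both. The rise was 2.30-fold in WT-GR (log2 1.20 ± 0.091 SE, limma adjusted p = 3.72e-07) and 2.81-fold in S134A-GR cells (log2 1.49, adjusted p = 3.81e-08), which ranked 300 and 174 from the top among all genes. Of the FOXO1 exon bases, 4.32% are shared with LINC00598 on the same strand, so a few of its reads are uncertain.

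FOXO3, the family member most tied to muscle atrophy, was 5335, 4954 and 4437 with vehicle and 6982, 6775 and 7274 with Dex in WT-GR cells. In the S134A-GR line it was 4043, 4258 and 3854 with vehicle and 6433, 5771 and 6289 with Dex. Dex libraries were above vehicle libraries in each line, and the change was 1.43-fold (log2 0.52, limma adjusted p = 8.17e-05) and 1.52-fold (log2 0.60, adjusted p = 1.85e-05). FOXO3 has a near-identical processed pseudogene, FOXO3B, listed at 319 to 611 reads in these libraries, so its counts are uncertain to the extent that reads were split between the copies. FOXO3B averaged 437 ± 109.7 and 423 ± 72.5 (SD, n = 3) with vehicle and Dex in WT-GR cells, and 487 ± 108 and 499.8 ± 86.9 in S134A-GR cells.

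FOXO4 took another course. It was 1765, 1934 and 1807 with vehicle and 2044, 2093 and 1898 with Dex in WT-GR cells, and these overlapped. In S134A-GR cells it was 2062, 2106 and 2048 with vehicle and 1567, 1794 and 1875 with Dex, all Dex libraries being lower. The log2 change was 0.13 in WT-GR (limma adjusted p = 0.185) and FOXO4 fell by 0.25 in S134A-GR cells, to 0.842 of the vehicle mean (adjusted p = 0.0275). That call was lost when any 1 of the 3 S134A-GR vehicle libraries, Dex replicate 1 or Dex replicate 2 was left out, with a change of -0.27 to -0.18 and adjusted p of 0.0512 to 0.118.

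The make-up of the FOXO transcripts was also compared within each library. Per kilobase, FOXO1 went from 6.15 ± 0.21% to 10.5 ± 0.75% (SD, n = 3) of the 3 factors in WT-GR and from 4.99 ± 0.45% to 11.3 ± 0.46% in S134A-GR cells. FOXO4 went from 42.8 ± 2.49% to 35.0 ± 2.06% and from 50.7 ± 0.61% to 34.4 ± 2.89%. Neither factor's shares overlapped between treatments in either line (exact permutation p = 0.1 each). The FOXO3 share overlapped between treatments in WT-GR cells (51.02 and 54.4%, exact permutation p = 0.3) and not in S134A-GR cells (44.3 and 54.3%, p = 0.1). After Dex, all 3 shares overlapped between the 2 lines, with differences of at most 0.73 percentage points, whereas with vehicle none did. Unlike the shares, the summed level per kilobase depends on the size factors. This sum was 1245 ± 64.2 with vehicle and 1667 ± 20.8 with Dex in WT-GR cells, and 1185 ± 31.1 and 1471 ± 52.1 in S134A-GR cells, without overlap between treatments (exact permutation p = 0.1 each).

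**Figure D2:**
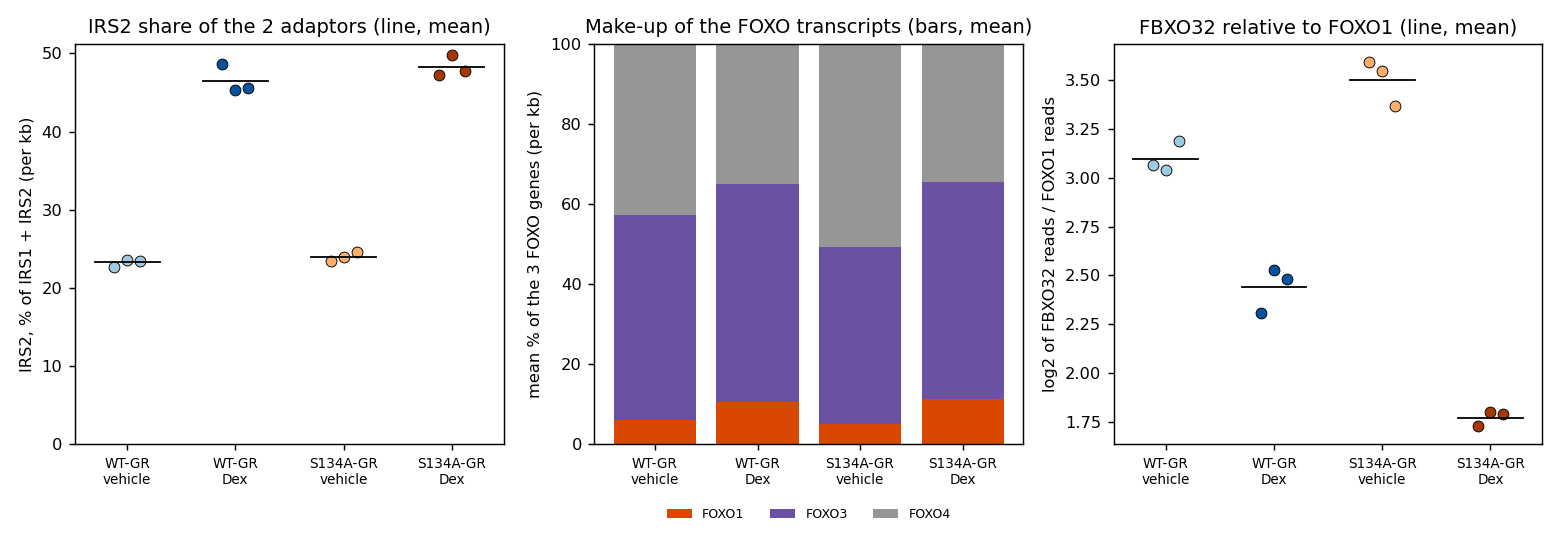
Ratios formed within each library, which do not depend on size factors, in the 4 groups. Left, IRS2 as a percentage of IRS1 plus IRS2 per kilobase; middle, mean percentage of FOXO1, FOXO3 and FOXO4 per kilobase; right, log2 of FBXO32 over FOXO1 reads (points, libraries; lines, means; the right axis does not start at 0). IRS2 goes from 23.3 to 46.5% and from 24.0 to 48.3%, and FBXO32 over FOXO1 drops to 2.44 in WT-GR and to 1.77 in S134A-GR cells.

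FBXO32 (atrogin-1), the ubiquitin ligase subunit that serves as the marker of atrophy in muscle, was the member whose response changed direction between the lines. In WT-GR cells it was 3968, 4194 and 4071 with vehicle and 5723, 5719.7 and 6369 with Dex. In S134A-GR cells it was 4360.3, 4054 and 4078 with vehicle and 3562, 3396 and 3628 with Dex. The WT-GR Dex libraries were the highest of all 12 and the S134A-GR Dex libraries the lowest, while the vehicle libraries of the 2 lines overlapped. The change was 1.46-fold in WT-GR (log2 0.54 ± 0.055 SE, limma adjusted p = 7.07e-06) and 0.847-fold in S134A-GR cells (log2 -0.24 ± 0.055, adjusted p = 0.00788). The fall in S134A-GR cells missed the threshold without vehicle replicate 1 (log2 -0.20, adjusted p = 0.0523) and was called in the other 22 alternatives. The summed luminal markers were also highest in the WT-GR Dex libraries (90137 to 102293, against 80585 to 89404 in S134A-GR Dex libraries), and their part in this result was not tested.

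Relative to FOXO1 in the same library, FBXO32 was lower with Dex in both lines. The log2 ratio of FBXO32 to FOXO1 reads was 3.10 ± 0.078 with vehicle and 2.44 ± 0.12 with Dex (SD, n = 3) in WT-GR cells, and 3.501 ± 0.12 and 1.77 ± 0.038 in S134A-GR cells, without overlap between treatments (exact permutation p = 0.1 each). The ratio to FOXO3 overlapped between treatments in WT-GR cells (-0.26 ± 0.15 and -0.24 ± 0.048, exact permutation p = 0.9) and went from 0.04 ± 0.097 to -0.80 ± 0.045 in S134A-GR cells without overlap (exact permutation p = 0.1).

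TRIM63 (MuRF1), the other classical atrophy ligase, was barely detected, with 21 to 97 reads a library. It was 55.4, 37.0 and 44.2 with vehicle and 35.9, 41.9 and 68.1 with Dex in WT-GR cells, and 53.7, 43.6 and 54.3 with vehicle and 62.3, 84.9 and 59.3 with Dex in S134A-GR cells. The Dex libraries of S134A-GR cells lay above their vehicle libraries and those of WT-GR cells did not. Neither change was called: log2 0.06 (95% interval -0.53 to 0.65, limma adjusted p = 0.895) and 0.43 (-0.16 to 1.02, adjusted p = 0.387). These intervals are wide, and the log2(value + 1) scale slightly understates changes at such levels.

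DDIT4, the stress-induced inhibitor of mTORC1, was the most abundant member by far and rose in both lines. It was 36624, 39629 and 41620 with vehicle and 80457, 72635 and 67925 with Dex in WT-GR cells. The S134A-GR line had 22178, 24179 and 21332 with vehicle and 34864, 38753 and 37144 with Dex. Dex libraries lay above vehicle libraries in each line, and those of S134A-GR cells with Dex overlapped those of WT-GR cells with vehicle. The rise was 1.88-fold in WT-GR (log2 0.91 ± 0.069 SE, limma adjusted p = 4.21e-07) and 1.64-fold in S134A-GR cells (log2 0.71, adjusted p = 4.55e-06), or 34381 and 14357 normalized reads. On the annotation, 41.2% of DDIT4 exon bases overlap the antisense gene DDIT4-AS1, and whether the counting used strand is not given in the sources used here, so reads of the 2 cannot be told apart.

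SESN1, a sestrin induced by p53 and FOXO factors that restrains mTORC1, was not called for Dex in either line. It was 631, 670.1 and 689.7 with vehicle and 591, 684 and 626 with Dex in WT-GR cells, and 503, 417 and 488 with vehicle and 525, 554 and 499.2 with Dex in S134A-GR cells. The treatments overlapped in both lines, and the log2 changes were -0.07 (95% interval -0.27 to 0.14, limma adjusted p = 0.636) and 0.17 (-0.04 to 0.37, adjusted p = 0.315). Of its exon bases, 7.09% overlap the antisense gene AL390208.1.

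The difference between the 2 Dex responses was tested directly, as S134A-GR minus WT-GR. FBXO32 was the only member called (log2 -0.78, SE 0.078, 95% interval -0.95 to -0.61, limma adjusted p = 0.000431), where 0.414% of all genes were called, 0.238% with a positive and 0.175% with a negative difference. Without WT-GR Dex replicates 2 and 3 it was -0.73 (adjusted p = 0.00262), and it was called under all 22 alternatives of this comparison. FOXO4 (-0.38, interval -0.60 to -0.17, adjusted p = 0.125) and PIK3R1 (0.40, interval 0.11 to 0.69, adjusted p = 0.198) came next and did not pass. FOXO4 passed with DESeq2 (adjusted p = 0.0237), with library weights (adjusted p = 0.0259), without WT-GR Dex replicate 3 (adjusted p = 0.0315) and without replicates 2 and 3 (adjusted p = 0.0401). PIK3R1 and FOXO1 passed with library weights (adjusted p = 0.0194 and 0.0232). The weighted fit called 2854 of all genes in this comparison, where the main fit called 66. It weighted WT-GR vehicle replicate 2 at 11.2 and replicates 1 and 3 of that group at 0.52 and 0.50, so that group's mean rested mostly on 1 library.

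For the members that rose in both lines, the intervals bound how different the responses could be on the log2 scale. They were -0.20 to 0.32 for IRS2, -0.15 to 0.18 for IRS1, -0.12 to 0.29 for FOXO3, -0.41 to 0.02 for DDIT4 and 0.01 to 0.57 for FOXO1 (adjusted p of 0.835, 0.942, 0.653, 0.324 and 0.269, limma). The FOXO1 interval lay wholly on the positive side, but FOXO1 was not called. For DDIT4 the scale matters, since its 2 folds were 1.88 and 1.64 while its gains were 34381 and 14357 normalized reads. Its difference of responses was -0.19 with all libraries and -0.32 (adjusted p = 0.054) without WT-GR Dex replicates 2 and 3.

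**Figure D3:**
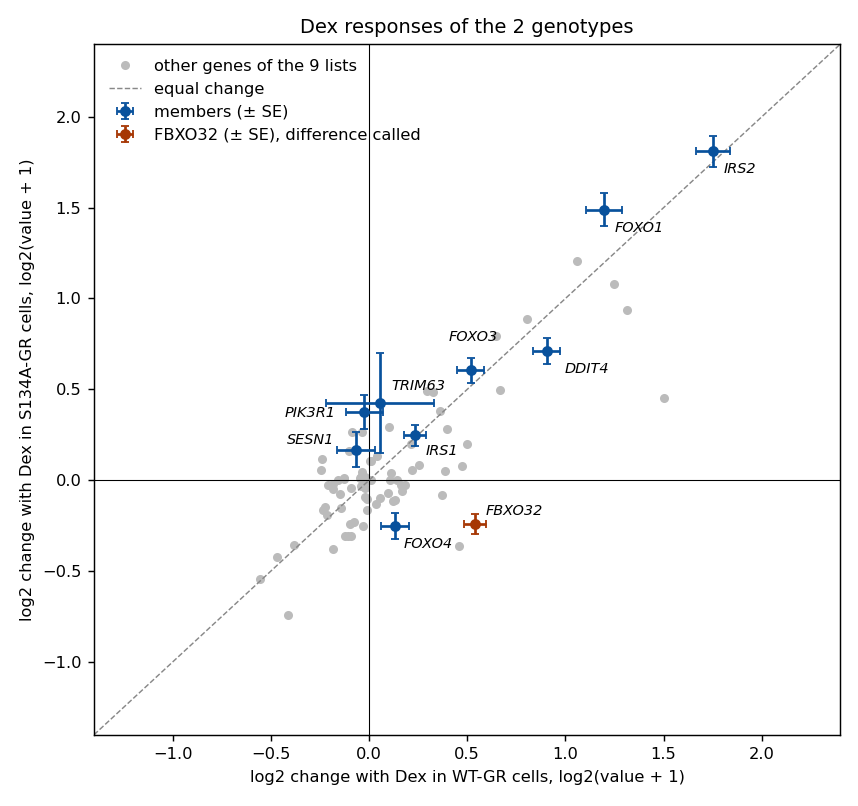
Log2 change with Dex in S134A-GR cells (vertical) against WT-GR cells (horizontal) for the 10 members (points with SE) and for the 78 tested genes of the 9 pathway lists (grey), of which 4 lie beyond the axes. IRS2 and FOXO1 lie at the upper right near the dashed line of equal change, and FBXO32 at 0.54 and -0.24 lies well below it.

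Between the genotypes without hormone, the members called were lower in S134A-GR cells, but calls were no more common than among all genes. With vehicle, 4 of 10 were called and all 4 were lower: DDIT4 (log2 -0.80, 0.574-fold, limma adjusted p = 7.85e-07), SESN1 (-0.50, 0.708-fold, adjusted p = 0.00067), FOXO1 (-0.37, adjusted p = 0.00361) and FOXO3 (-0.27, adjusted p = 0.00422). Of all genes, 50.5% were called between the lines with vehicle, 23.8% higher and 26.7% lower, so that a call is common in this comparison. The libraries of the 2 lines did not overlap for 6 members, DDIT4, SESN1, FOXO1, FOXO3, FOXO4 and IRS1, against 64.3% of all genes. FBXO32 and IRS2 overlapped, with differences of 0.03 (95% interval -0.09 to 0.15) and -0.04 (-0.23 to 0.14). FOXO4 went the other way, higher in S134A-GR cells at 0.18, and was not called (limma adjusted p = 0.0541). It was called higher under 9 alternatives, edgeR with TMM among them (0.19, adjusted p = 0.0412).

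With Dex, 6 members differed: PIK3R1 was higher in S134A-GR cells (log2 0.30, limma adjusted p = 0.0162), and FBXO32, DDIT4, SESN1, FOXO4 and FOXO3 were lower. Of all genes, 49.7% were called here, 23.4% higher and 26.3% lower, and 52.4% had groups that did not overlap, as 6 members had. DDIT4 was at 0.501 of its WT-GR mean (log2 -0.99, adjusted p = 1.14e-07) and FBXO32 at 0.594 (log2 -0.75, adjusted p = 1.76e-07). These 2 were called in all 23 alternatives. The calls of SESN1 (-0.27, adjusted p = 0.0336), FOXO4 (-0.21, adjusted p = 0.027), FOXO3 (-0.19, adjusted p = 0.0354) and PIK3R1 each depended on the libraries used. Without WT-GR Dex replicates 2 and 3 the adjusted p were 0.302, 0.0684, 0.149 and 0.0685, while DDIT4 was at -1.12 and FBXO32 at -0.70 (adjusted p = 3.02e-06 and 1.14e-05). Leaving out 1 library ended the SESN1 call for WT-GR Dex replicate 2 and S134A-GR Dex replicates 1 and 3 (log2 -0.21, -0.27 and -0.23). It ended the FOXO4 call for WT-GR Dex replicates 1 and 2 and S134A-GR Dex replicate 1 (-0.20, -0.18 and -0.13). It ended the FOXO3 call for WT-GR Dex replicates 1 and 3 and S134A-GR Dex replicates 2 and 3 (-0.19, -0.16, -0.14 and -0.20), and the PIK3R1 call for WT-GR Dex replicate 2 and S134A-GR Dex replicate 1 (0.27 and 0.23). TRIM63, at 0.53 (adjusted p = 0.126), was called without WT-GR Dex replicate 3 (0.79, adjusted p = 0.0218) and without replicates 2 and 3 (0.90, adjusted p = 0.0361). IRS1, at -0.09 (adjusted p = 0.2), was also called without replicates 2 and 3 (-0.19, adjusted p = 0.0313). FOXO1, lower in S134A-GR cells with vehicle, was not called with Dex (-0.08, interval -0.28 to 0.11, adjusted p = 0.471).

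**Figure D4:**
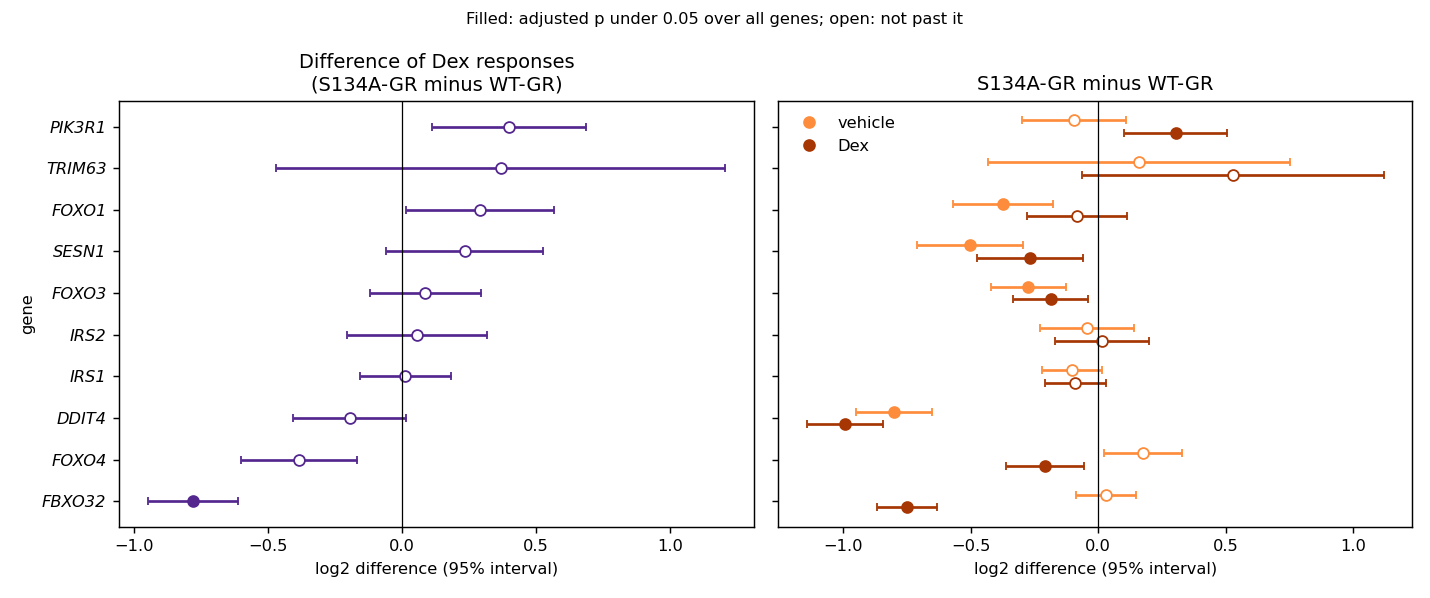
Left, difference of the Dex responses (S134A-GR minus WT-GR) and right, difference between the lines with vehicle and with Dex, for each member in log2 units with 95% intervals. Filled points passed an adjusted p of 0.05 over all genes: FBXO32 alone on the left, 4 members with vehicle and 6 with Dex on the right.

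In the order of levels per kilobase of exon, DDIT4 was highest and TRIM63 lowest in all 4 groups. In WT-GR vehicle cells the means per kilobase were 19092 for DDIT4, 1284 for IRS1, 636 for FOXO3, 551 for FBXO32, 532 for FOXO4, 389 for IRS2, 155 for PIK3R1, 129.6 for SESN1, 76.6 for FOXO1 and 17.7 for TRIM63. FBXO32 and FOXO4 overlapped in that order, as did PIK3R1 and SESN1. With Dex, IRS2 reached the range of IRS1, at 1319 against 1510.0 in WT-GR and 1326 against 1418 in S134A-GR cells. FOXO1 was then above SESN1 in both lines, at 176 and 166, and overlapped PIK3R1 in WT-GR cells. FBXO32 at 803 was above FOXO4 at 584 in WT-GR Dex libraries, and at 477 it overlapped FOXO4 at 506 in S134A-GR Dex libraries.

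The other genes of the pathway were called in both directions. Of 85 further genes in 9 lists (receptors, adaptors, PI3-kinase subunits, phosphatases and other brakes, the AKT and mTOR branch, sestrins, FOXO targets, atrophy and autophagy genes, and FOXO6 with FOXO partners), 81 were in the table and 78 were tested. In WT-GR cells 22 were called higher and 13 lower with Dex, where 13.9% and 14.0% of all genes were, and the median log2 change was -0.01 beside -0.02 for all genes. In S134A-GR cells 15 were higher and 10 lower, where 7.99% and 7.76% of all genes were, with a median of 0.0017 beside -0.02. The counts of the single lists that follow stand against the same shares.

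Among receptors, 1 of 3 was called in each line, the insulin receptor INSR, with 2456 ± 160.2 and 3016 ± 168 normalized reads (SD, n = 3) with vehicle and Dex in WT-GR cells (log2 0.30, limma adjusted p = 0.00394) and 2885 ± 119 and 4060.0 ± 188 in S134A-GR cells (log2 0.49, adjusted p = 7.41e-05). Of 7 adaptors, SHC1 rose in both lines (log2 0.40 and 0.28, adjusted p = 0.000109 and 0.00214), while GRB10 fell in WT-GR and GRB2 in S134A-GR cells. Of 6 PI3-kinase subunits, the leukocyte-type catalytic subunits PIK3CG (log2 -0.47 and -0.42, adjusted p = 0.00105 and 0.00267) and PIK3CD (-0.21 and -0.19, adjusted p = 0.0161 and 0.0424) fell in both lines. The PIK3CD call was lost in S134A-GR cells on leaving out any 1 of their libraries (-0.21 to -0.17), and in WT-GR cells without WT-GR Dex replicates 2 and 3 (-0.07) and under 3 other alternatives. In WT-GR cells PIK3R2 was also called higher and PIK3CB lower.

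Of 11 phosphatases and other brakes, 4 were higher and 3 lower in WT-GR and 3 higher and 1 lower in S134A-GR cells. PTPN1, the phosphatase PTP1B that dephosphorylates the insulin receptor, went from 21043 ± 296 to 32990.1 ± 613 (SD, n = 3) in WT-GR and from 21689.9 ± 166 to 37590.5 ± 716 in S134A-GR cells (log2 0.65 and 0.79, limma adjusted p = 9.64e-09 and 1.16e-09). PHLPP1, a phosphatase of AKT, rose by 0.33 and 0.48 on the log2 scale (adjusted p = 0.00553 and 0.000332). In the AKT and mTOR branch (16 genes), DEPTOR, an inhibitor of mTOR, was called higher in WT-GR cells and RPTOR, a subunit of mTORC1, was called lower in S134A-GR cells. Of 2 further sestrins tested, SESN3 fell in both lines (log2 -0.55 and -0.54, adjusted p = 0.0036 and 0.00517).

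Of 13 FOXO targets, 7 were higher and 1 lower in WT-GR cells, with a median log2 change of 0.37, and 5 were higher and 1 lower in S134A-GR cells, with a median of 0.01. CITED2, GADD45A, BCL6, KLF15 and TXNIP were called higher and BCL2L11 lower in both lines. KLF15, a transcription factor of amino acid breakdown, was 64.8 ± 16.3 and 441 ± 56.2 with vehicle and Dex in WT-GR and 172 ± 11.2 and 866 ± 75.7 in S134A-GR cells (log2 2.77 and 2.32, limma adjusted p = 3.88e-08 and 2.49e-07). BCL6, a transcriptional repressor, rose by 1.25 and 1.08 on the log2 scale (adjusted p = 1.38e-09 and 5.58e-09). Several of these genes are also known as direct glucocorticoid targets, and the list does not separate the 2 kinds.

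Of 15 atrophy and autophagy genes, 7 were higher and 3 lower in WT-GR and 5 higher and 3 lower in S134A-GR cells, with medians of -0.04 and -0.03. FBXO31, TRIM54, MAP1LC3B, GABARAPL1 and KLF9 were called higher and SQSTM1 lower in both lines. KLF9, a glucocorticoid-induced transcription factor, went from 131 ± 3.46 to 2238 ± 148 (SD, n = 3) in WT-GR and from 117 ± 12.8 to 1868 ± 36.7 in S134A-GR cells (log2 4.08 and 3.99, limma adjusted p = 2.63e-12 and 3.50e-12). TRIM54 (MuRF3), a relative of TRIM63, went from 23.9 ± 8.72 to 131 ± 19.7 and from 37.0 ± 12.9 to 149.6 ± 3.87 (log2 2.45 and 2.04, adjusted p = 2.69e-05 and 0.000149). The list of FOXO6 and FOXO partners (5 genes) held 0 calls for Dex in either line by limma, edgeR with TMM and DESeq2, with 0 genes (WT-GR) and 1 gene (S134A-GR) at an unadjusted limma p under 0.05.

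**Figure D5:**
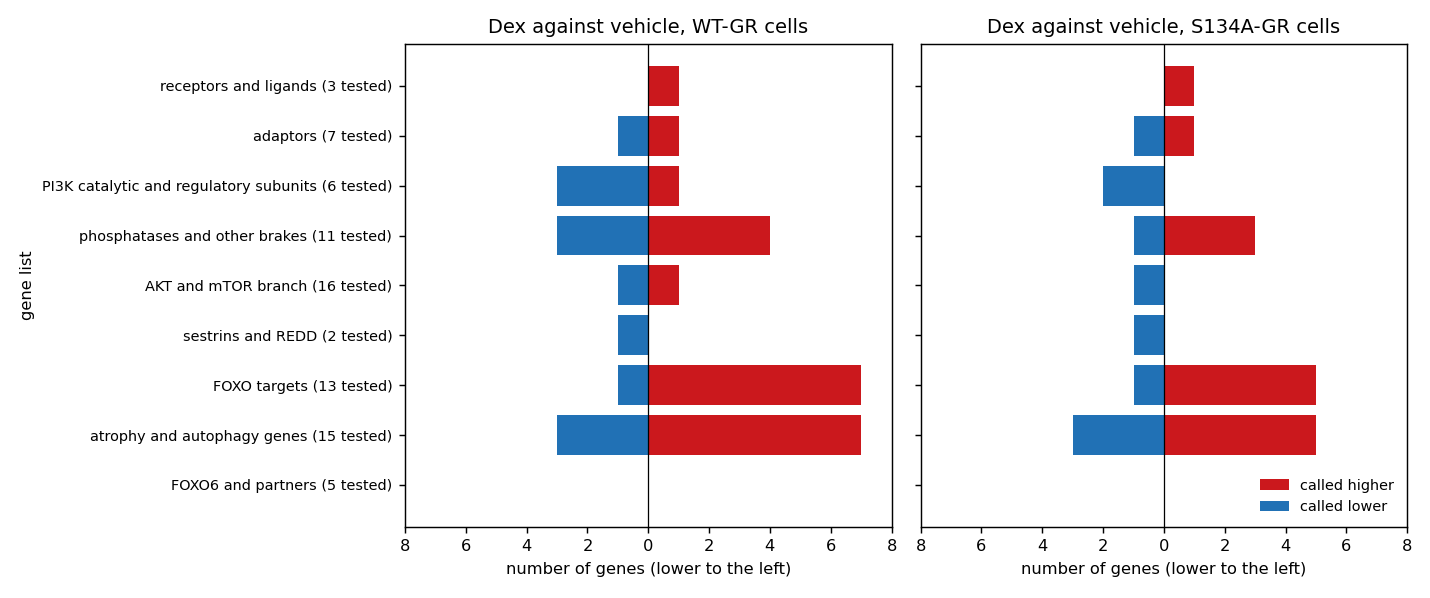
Number of genes called higher (right) and lower (left) with Dex in each of the 9 lists, in WT-GR and S134A-GR cells. The FOXO target list (13 genes tested) has 7 called higher and 1 lower, then 5 and 1. The atrophy and autophagy list (15 genes tested) has 7 and 3, then 5 and 3, and the list of FOXO6 and partners has no bar. Of all genes, 13.9% were called higher and 14.0% lower in WT-GR cells, and 7.99% and 7.76% in S134A-GR cells.

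In the difference of responses, 1 of the 78 further genes was called, TRIB2, a pseudokinase that restrains FOXO3. It was 10703 ± 484 and 9052 ± 193 (SD, n = 3) with vehicle and Dex in WT-GR cells and 4593 ± 126 and 4976 ± 72.7 in S134A-GR cells. It fell by 0.24 in WT-GR cells (limma adjusted p = 0.00136), was at 0.12 in S134A-GR cells (adjusted p = 0.106), and the difference was 0.36 (adjusted p = 0.0256). That call was lost with a replicate block (adjusted p = 0.0798) and on leaving out WT-GR vehicle replicate 1 or 2, WT-GR Dex replicate 2 or any 1 library of S134A-GR cells, with differences of 0.33 to 0.37 and adjusted p of 0.0605 to 0.106. With vehicle the difference of TRIB2 between the lines, S134A-GR minus WT-GR, was -1.22 (adjusted p = 2.94e-10).

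The genes most like each member were found by the root mean square difference of the 4 group means, on the log2 scale and centred per gene, among 15956 other genes. Nearest to FBXO32 were GPD1 (0.013), the glycerol-3-phosphate dehydrogenase of the cytosol, GK3P (0.048) and BBC3 (0.054). The log2 change of GPD1 was 0.51 and -0.25 with Dex in WT-GR and S134A-GR cells and that of BBC3 0.46 and -0.36, beside 0.54 and -0.24 for FBXO32. BBC3 (PUMA), a death-promoting FOXO target of the list above, was 526 ± 38.4 and 729.7 ± 134.4 (SD, n = 3) in WT-GR and 553 ± 40.1 and 432 ± 58.9 in S134A-GR cells. Its difference of responses was -0.82 and not called (limma adjusted p = 0.0914), and it was called with DESeq2 (adjusted p = 0.00399) and without WT-GR Dex replicates 2 and 3 (adjusted p = 0.0181). Nearest to IRS2 were S1PR1 (0.053), ADAMTS9 and ANKRD1, nearest to FOXO1 SEC14L2 (0.047), AGFG2 and THBS1, and nearest to FOXO3 PRKCD (0.0046), TNFRSF1A and POM121L10P. For DDIT4 the nearest were C11orf96 (0.085), TGFB2 and CYP3A5, and for FOXO4 SDSL (0.011), MPG and UBE2S. For PIK3R1 they were ANKRD36C (0.017), SENP8 and PGM2L1, for IRS1 UBE2B (0.0038), OGDH and SVIL, for SESN1 METTL5 (0.015), SERINC1 and MIER1, and for TRIM63 NUAK1 (0.016), KCNK2 and ZNF565. The measure compares 4 group means only, and genes picked by it have like changes by construction.

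On GENCODE v29 (GRCh38), FBXO32 lies at chr8:123497889-123541206, DDIT4 at chr10:72273920-72276036, IRS2 at chr13:109752698-109786568 and FOXO1 at chr13:40469953-40666597. IRS1 lies at chr2:226731317-226799759, PIK3R1 at chr5:68215720-68301821, FOXO3 at chr6:108559835-108684774, SESN1 at chr6:108986437-109094819, TRIM63 at chr1:26051304-26068436 and FOXO4 at chrX:71096197-71103535. All 10 are protein-coding genes.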

How the data were processed

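RNA was sequenced from 12 libraries, 3 in each of 4 groups. Each deposited value is a normalized signal, a read count per gene divided by 1 size factor of its library, made by the authors. DESeq2 1.22.2, Subread with featureCounts, FastQC 0.11.7 and hg38 are named, per the submitters' processing notes, without role or order. The aligner is not given in the sources used here, nor is the annotation. Values were whole multiples of 1 step per library (100% within 0.01 reads), which gave back reads and totals.

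The Dex files list 26485 names for 19907 values, so that names and values are out of step, and only 8 lines bear the same name as the vehicle files. Dex values were given the vehicle names by line. Matched by line, each Dex library and the vehicle mean correlated across genes at r = 0.9816 to 0.9886, by name at -0.0056 to -0.0036. Within the 201 lines centred on each member, the stretch left after trimming 5 lines at each end matched best without a shift. This held in 6 of 6 Dex libraries (shifts of up to 5 lines tried), with r of at least 0.978. Every Dex value rests on this repair.

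Values were tested as log2(value + 1) in limma 3.58.1 (R 4.3.3), which modelled the variance as a trend of the mean, with all 12 libraries in 1 fit of 4 groups, two-sided, adjusted by Benjamini-Hochberg over the 15957 genes that reached 10 in 3 or more libraries (threshold 0.05). The fit was also run on simulated data, for Dex in WT-GR cells and for the difference of responses only. No simulated gene differed between the lines with vehicle, unlike in these data, and the outcome is not reported here. There were 5 comparisons, namely Dex against vehicle for each line, the difference of these responses, and the 2 lines with vehicle and with Dex. Exact permutation tests were used for ratios within libraries, for the summed FOXO level and for single members. Alternatives included DESeq2 1.42.0 and edgeR 4.0.16 on recovered reads, where edgeR with TMM called 4440, 2528, 61, 8021 and 7855 genes in the 5 comparisons. All 10 members were named whatever their values. Of the lists, those called in the difference of responses were named, and up to 2 per list with the largest change among those called the same way in both lines, as were the 3 genes most like each member. Other list genes named beside a count, such as GRB10, were chosen after their values were seen. The members and lists were chosen with earlier results of these data known. Exon lengths came from GENCODE v29 and upstream sequences from RefSeq (GRCh38.p14).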

Additional observations from a re-analysis of the deposited data

Results flagged for a closer look

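FBXO32 stood out because its Dex responses differed between the 2 lines by limma's test of the difference, S134A-GR minus WT-GR: -0.78 on the log2 scale (adjusted p = 0.000431), with all 3 WT-GR Dex libraries above and all 3 S134A-GR Dex libraries below the vehicle libraries of their line. Leaving out 1 library at a time gave -0.81 to -0.73 (adjusted p of 0.000505 to 0.00305). TRIB2 differed by the same test, at 0.36 (adjusted p = 0.0256), and its call was lost with 1 library left out in 9 of 12 cases. The cause of either difference was not tested.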

How the results depend on the processing

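Over the 5 comparisons, 25 calls were made on members. Of these, 18 held under all alternatives tried, which were 2 other pseudocounts, 2 other filters, 3 count-based fits, library weights, only the groups compared, a replicate block, each library left out and WT-GR Dex replicates 2 and 3 left out. The other 7 were lost under some (FOXO4, FBXO32 and PIK3R1 for Dex in S134A-GR cells, and FOXO3, FOXO4, PIK3R1 and SESN1 between the lines with Dex), and no called value changed sign. The number of members called for Dex in S134A-GR cells ranged from 5 to 8 with 1 library left out (8 with all), for the difference of responses from 1 to 2, and between the lines with Dex from 3 to 6 (6 with all). For the difference of responses it was 2 with DESeq2, 2 without WT-GR Dex replicates 2 and 3, and 4 with library weights. It was 7 between the lines with vehicle under library weights, and 3 with Dex under scaling by library size only.

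Values that were not called and changed sign were, for scaling by library size only, FOXO1 and IRS1 between the lines with Dex (0.032 and 0.027) and IRS2 with vehicle (0.035). Without WT-GR Dex replicates 2 and 3 they were TRIM63 for Dex in WT-GR cells (-0.32), IRS1 and IRS2 for the difference of responses (-0.088 and -0.17) and IRS2 between the lines with Dex (-0.21). With 1 library left out, the extremes were FBXO32 between the lines with vehicle (-0.0038 to 0.050), TRIM63 for Dex in WT-GR cells (-0.21 to 0.25), PIK3R1 for Dex in WT-GR cells (-0.12 to 0.083) and between the lines with vehicle (-0.19 to 0.012), IRS1 for the difference of responses (-0.033 to 0.065), and IRS2 for the difference (-0.018 to 0.17) and between the lines with Dex (-0.061 to 0.13). The cause was not tested.

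Counts over all genes moved most for the difference of responses: 66 with all libraries, 506 with DESeq2, 2854 with library weights, 25 with the replicate block, 1604 without WT-GR Dex replicate 3 and 26 to 37 without WT-GR vehicle replicate 1 or 2 or any 1 library of S134A-GR cells. It was 2550 without WT-GR Dex replicates 2 and 3. Of the 78 list genes, 1 was called in this comparison with all libraries, 9 with DESeq2, 24 with library weights, 0 with the replicate block, 0 to 15 with 1 library left out and 19 without WT-GR Dex replicates 2 and 3. In S134A-GR cells 25 of them were called for Dex, and 42 with library weights. For Dex in WT-GR cells 4455 genes became 7113 with weights, 2490 with only the groups compared and 2963 without WT-GR vehicle replicate 2, and in S134A-GR cells 2513 became 5116 with weights. The weights of 0.20 to 11.2 came from an iteration that did not fully converge. Scaling by library size only shifted the median of all genes by 0.11 between the lines with Dex. It moved the calls higher and lower from 2216 and 2239 to 1448 and 3023 for Dex in WT-GR cells, from 3804 and 4257 to 4849 and 3285 between the lines with vehicle, and from 3730 and 4201 to 5347 and 2896 with Dex. There it ended the calls of FOXO3 (-0.07), FOXO4 (-0.09) and SESN1 (-0.16). No pairing by the shared replicate numbers was seen in the values. Same-numbered libraries correlated at -0.085 to 0.055 in their deviations from the group means, and differently numbered ones at -0.076 to 0.092. Such correlations cannot tell whether same-numbered libraries came from the same culture or day. Under the replicate block 6, 8, 1, 4 and 5 members were called in the 5 comparisons, SESN1 between the lines with Dex being the call lost (adjusted p = 0.0574). Depth limits TRIM63 most, at 21 to 97 reads.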
